A study of Drosophila melanogaster with 10 samples.

Results

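The Wnt ligand genes of Drosophila melanogaster encode the secreted signals of the Wnt pathway, and their levels are described here across 10 RNA-seq libraries. Of 15259 genes in the count table, 6 were named as members: wg, Wnt2, Wnt4, Wnt5, Wnt6 and Wnt10. They were chosen by name and not by their values, and each was read from its transcript with the highest total count. The transcripts were FBtr0079432 for wg, FBtr0088512 for Wnt2, FBtr0089291 for Wnt4, FBtr0074623 for Wnt5 and FBtr0303251 for Wnt6. No transcript in the table matched Wnt10, which was not analysed here, so values are given for 5 of 6 members. In the BDGP6 annotation wg, Wnt4, Wnt6 and Wnt10 lie on chromosome arm 2L, Wnt2 lies on 2R and Wnt5 lies on X. None of the 5 shares an exon with another gene there, although CG31909 lies within the span of Wnt4.

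The groups were flight muscle of pharate animals 96 h after puparium formation, labelled Rbf-KD or WT (2 libraries each), and the cut notum of wing discs from wandering larvae of the last instar, again Rbf-KD or WT (3 libraries each). Animals labelled Rbf-KD carried a hairpin against Rbf, P{UAS-Rbf-RNAi[GD:10696]}. Animals labelled WT carried a control hairpin, P{UAS-mCherry-RNAi}attP2, so they were not an unmodified strain. All animals were kept at 25 °C and shared the Mef2-GAL4 driver, which acts in the muscle lineage, and P{UAS-Dicer2.D}1, which strengthens RNA interference. The labels place the hairpins on different transgenes, and stock background cannot be told apart from the hairpin. The notum holds disc epithelium as well as the muscle precursors in which the driver acts. Nothing says that the libraries of a group came from separate animals, so p-values measure only the spread between these samples, which may be technical.

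Wnt proteins are secreted glycoproteins that carry a lipid added by Porcupine and leave the cell with the help of Wntless. They bind Frizzled receptors with the coreceptor Arrow, which keeps the beta-catenin Armadillo from being destroyed and lets it enter the nucleus with the transcription factor Pangolin. In the wing disc, wg is known for patterning the notum and its sensory bristles and for signalling from the epithelium to the muscle precursors beneath it. Wnt6 lies next to wg in a gene cluster and is expressed in much the same places. Wnt4, of the same cluster, is known for roles in cell movement and in the targeting of motor axons. Wnt2 is known for roles in the testis and in patterning of thoracic muscle. Wnt5 acts in axon guidance through the Ryk-type receptor Derailed.

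Gene counts summed to between 53864590 and 73408335 per library in flight muscle and between 42097050 and 55401980 in notum. In flight muscle Rbf counts went opposite to the direction of a knockdown, and the reason was not tested. Rbf had 1210 and 1454 counts in the muscle libraries labelled Rbf-KD, against 187 and 203 counts in those labelled WT, a log2 change of 1.48 with an SE of 0.17 (adjusted p = 0.00229 by edgeR). In notum, Rbf had 4025, 4081 and 4336 counts in libraries labelled Rbf-KD, against 4346, 5179 and 4643 in those labelled WT (log2 fold change -0.25 ± 0.18, adjusted p = 1.00 by edgeR). Genotype names below are therefore the names on the labels. The 10 flight muscle markers summed to between 79700 and 86000 library-total CPM (counts divided by the gene total of the library and multiplied by 1000000) in muscle labelled Rbf-KD and to between 145000 and 159000 in muscle labelled WT. They summed to between 366 and 372 in notum labelled Rbf-KD and to between 364 and 378 in notum labelled WT. Most of the notum sums came from flr, at 205 to 222 (Rbf-KD) and 193 to 231 (WT), and Mef2, at 109 to 136 and 97.4 to 147. Unlike the other markers, flr was lower in muscle, at 16.1 to 21.8 (Rbf-KD) and 8.85 to 9.51 (WT). In notum, Act88F was at 5.32 to 8.05 (Rbf-KD) and 6.71 to 7.04 (WT). All 9 notum epithelium markers and all 7 muscle precursor markers were above 3 counts in notum of both genotypes. The 7 wing pouch and hinge markers summed there to 760 to 910 library-total CPM in libraries labelled Rbf-KD and to 553 to 1200 in those labelled WT. Most of this was zfh2, at 444 to 568 (Rbf-KD) and 378 to 794 (WT). The same markers summed to 304 to 322 in muscle labelled Rbf-KD and to 150 to 158 in muscle labelled WT. Which cells these counts came from was not tested. Both notum libraries numbered 1 stood apart from the other 4 on the first principal component of the notum libraries, which held 60.2% of the variance.

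All 5 measured ligand genes were expressed in the notum, with wg highest per length of transcript. Levels are given as CPM after TMM scaling, which rescales each library so that most genes do not differ, and per kilobase of transcript where genes are compared. In notum labelled Rbf-KD, wg averaged 22.6 ± 3.65, Wnt5 12.2 ± 2.21, Wnt2 9.95 ± 0.924, Wnt6 4.97 ± 0.514 and Wnt4 2.61 ± 0.745 TMM CPM per kb (SD, n = 3). In notum labelled WT, wg averaged 20.5 ± 3.15, Wnt5 11.9 ± 4.34, Wnt2 10.1 ± 1.23, Wnt6 4.53 ± 0.2 and Wnt4 2.63 ± 0.68 TMM CPM per kb (SD, n = 3). The order was therefore wg, Wnt5, Wnt2, Wnt6 and Wnt4 by mean in both genotypes. The library ranges of Wnt5 and Wnt2 overlapped in both genotypes, and Wnt5 was above Wnt2 in 5 of 6 notum libraries. The other neighbours in the order did not overlap, and wg exceeded Wnt5, Wnt2 exceeded Wnt6 and Wnt6 exceeded Wnt4 in 6 of 6 notum libraries.

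Of the summed per-kilobase level of the 5 genes in notum, wg made up 43.1% ± 1.82 in libraries labelled Rbf-KD and 41.5% ± 2.21 in those labelled WT (SD, n = 3 each). Among 13372 protein-coding genes ranked by level per kilobase, 85.3% lay below wg in notum labelled Rbf-KD and 83.9% in notum labelled WT. At the other end of the order, 43.1% of the genes lay below Wnt4 in notum labelled Rbf-KD and 43.3% in notum labelled WT. The ratio of wg to Wnt6 per kilobase was 4.53 ± 0.417 in notum labelled Rbf-KD and 4.53 ± 0.551 in notum labelled WT (SD, n = 3 each). The ratio of wg to Wnt4 was less even, at 8.91 ± 1.39 in notum labelled Rbf-KD and 7.99 ± 1.09 in notum labelled WT (SD, n = 3 each).

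**Figure D1:**
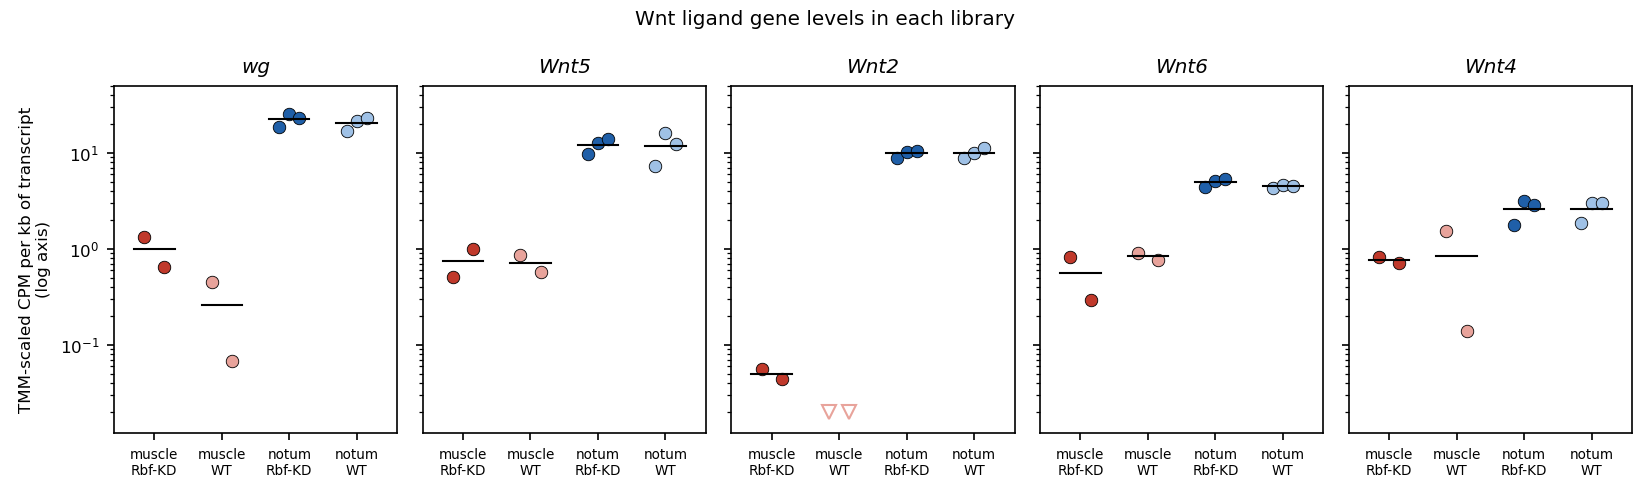
Level of each measured Wnt ligand gene in every library, as TMM-scaled CPM per kilobase of transcript on a log axis, in muscle Rbf-KD, muscle WT, notum Rbf-KD and notum WT from left to right. Points are libraries in the order of their numbers, bars are group means, and open triangles mark the 2 muscle WT libraries with 0 counts of Wnt2. For all 5 genes every muscle library lies below every notum library, a separation not counted over all genes.

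The genotypes were close for all 5 genes in notum. Counts of wg were 4760, 6853 and 5767 in notum labelled Rbf-KD, against 5373, 4681 and 5607 in notum labelled WT. Counts of Wnt5 were 3309, 4470 and 4597 in notum labelled Rbf-KD, against 3064, 4592 and 3928 in notum labelled WT. Counts of Wnt2 were 1746, 2111 and 2007 in notum labelled Rbf-KD, against 2159, 1666 and 2117 in notum labelled WT. These 3 genes overlapped between the genotypes on the TMM scale. Counts of Wnt6 were 1100, 1339 and 1297 in notum labelled Rbf-KD, against 1330, 999 and 1086 in notum labelled WT. Counts of Wnt4 were 522, 978 and 817 in notum labelled Rbf-KD, against 673, 758 and 848 in notum labelled WT. Both overlapped as well.

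None of the 5 ligand genes passed the test between genotypes in notum, where edgeR called 19 of 12203 genes, or 0.156%, at an adjusted p under 0.05. At an unadjusted p under 0.05 none of the 5 passed either, against 496 of all genes, and DESeq2 called none of the 5. The log2 fold changes were 0.10 for wg (95% interval -0.23 to 0.44), -0.05 for Wnt2 (-0.29 to 0.18) and 0.10 for Wnt6 (-0.10 to 0.30). The intervals were wider for Wnt4, at -0.04 (-0.65 to 0.56), and for Wnt5, at 0.01 (-0.61 to 0.64). The median log2 fold change was 0.01 over the 5 genes and -0.01 over all genes tested. With the replicate number as a block edgeR called 79 genes, and none of them was a ligand gene. Without Rbf-KD library 2 or 3 or WT library 2 or 3 it called 1 to 4 genes, again with no ligand gene among them. Differences within these intervals were not detectable with 3 libraries a group.

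Within each genotype, the library numbered 1 was the lowest of the 3 notum libraries on the TMM scale for all 5 ligand genes. Over all genes tested in notum, 2605 of 12203, or 21.3%, showed that order in both genotypes. For Wnt4 these libraries held 5.95 TMM CPM in notum labelled Rbf-KD, where the others held 10.7 and 9.67, and 6.22 TMM CPM in notum labelled WT, where the others both held 10.2. For Wnt5 they held 37.7 TMM CPM in notum labelled Rbf-KD, where the others held 49.0 and 54.4, and 28.3 in notum labelled WT, where the others held 61.7 and 47.2. Without both libraries the log2 fold changes between genotypes were 0.00 for Wnt4 and -0.075 for Wnt5, and no ligand gene was called.

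In flight muscle the ligand genes were low, with at most 154 counts in any library. Counts of wg were 125 and 77 in muscle labelled Rbf-KD, against 21 and 3 in muscle labelled WT. Counts of Wnt4 were 90 and 98 in muscle labelled Rbf-KD, against 82 and 7 in muscle labelled WT. In the WT pair, wg and Wnt4 were both far higher in library 1 than in library 2. Counts of Wnt5 were 63 and 154 in muscle labelled Rbf-KD, against 53 and 33 in muscle labelled WT. Counts of Wnt6 were 76 and 34 in muscle labelled Rbf-KD, against 41 and 33 in muscle labelled WT. Both genes overlapped between the genotypes on the TMM scale. Counts of Wnt2 were 4 and 4 in muscle labelled Rbf-KD, against 0 and 0 in muscle labelled WT. A count of 0 allows up to 3 counts, which was 0.189 and 0.201 TMM CPM in the WT muscle libraries. The 4 counts in muscle labelled Rbf-KD were 0.125 and 0.0989 TMM CPM, below that limit, so no fold is given for Wnt2 between genotypes. Limits of this kind cover counting error only.

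The order seen in notum did not carry over to flight muscle. In muscle labelled Rbf-KD the means were 0.994 ± 0.483 for wg, 0.777 ± 0.0804 for Wnt4, 0.75 ± 0.339 for Wnt5, 0.562 ± 0.379 for Wnt6 and 0.0499 ± 0.00814 for Wnt2, in TMM CPM per kb (SD, n = 2). In muscle labelled WT they were 0.839 ± 0.0937 for Wnt6, 0.837 ± 0.988 for Wnt4, 0.721 ± 0.209 for Wnt5, 0.261 ± 0.272 for wg and 0 for Wnt2 (SD, n = 2). Neighbouring genes overlapped in their library ranges in both muscle groups, except that Wnt2 lay below the others and wg lay below Wnt5 in muscle labelled WT. The ratio of wg to Wnt6 per kilobase was 1.91 ± 0.429 in muscle labelled Rbf-KD and 0.295 ± 0.291 in muscle labelled WT (SD, n = 2 each). Of the summed level of the 5 genes, wg made up 30.9% ± 9.4 in muscle labelled Rbf-KD and 8.26% ± 5.43 in muscle labelled WT (SD, n = 2 each), where Wnt6 made up 36.9% ± 18.1.

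Every ligand gene was lower in every flight muscle library than in every notum library, in both genotypes. The share of all genes with this separation was not counted, so it is not read as particular to the ligand genes. In bulk tissue, fewer cells of a type and less RNA per cell cannot be told apart, and here tissue and stage changed together. Between muscle and notum labelled Rbf-KD, all 5 genes were called lower, where edgeR called 74.1% of 13407 genes, 34.9% as higher and 39.2% as lower. Between muscle and notum labelled WT, all 5 were lower and all but Wnt4 were called. There edgeR called 76.8% of genes, 33.3% as higher and 43.4% as lower. Wnt2 entered both tests only through its notum counts, so its calls are not read. In muscle WT library 2, wg and Wnt4 had 3 and 7 counts, under the filter minimum of 10. Both entered the WT test through other groups, so their WT fold changes are uncertain. The median log2 fold change of the 5 genes was -4.01 in the Rbf-KD comparison and -4.04 in the WT comparison, also with Wnt2 at its bound. Over all genes tested it was -0.23 in the Rbf-KD comparison and -0.50 in the WT comparison.

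The morphogen gene wg averaged 2.9 ± 1.41 TMM CPM in muscle labelled Rbf-KD (SD, n = 2), against 65.9 ± 10.6 in notum labelled Rbf-KD (SD, n = 3), a log2 fold change of -4.52 with an SE of 0.44 (adjusted p = 1.95e-05 by edgeR). In the WT libraries it averaged 0.762 ± 0.795 TMM CPM in muscle (SD, n = 2), against 60.0 ± 9.2 in notum (SD, n = 3), a log2 fold change of -6.27 with an SE of 0.55 (adjusted p = 6.82e-06 by edgeR). Wnt2 fell furthest of the 5 in the Rbf-KD comparison. In the Rbf-KD libraries its level in muscle was 202-fold lower than in notum, with a 95% counting interval of 102 to 468. In the WT libraries it was at least 116-fold lower in muscle than in notum, with 3 counts allowed per muscle library. There wg was 77.2-fold lower, with a log2 95% interval of -7.52 to -5.02, so the order of wg and Wnt2 is not settled. The edgeR tests of Wnt2 between tissues are not read, since it passed the filter only through its notum counts.

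Wnt5, the Derailed ligand, was lower by nearly the same amount in both genotypes. Its log2 fold change was -4.01 ± 0.43 in the Rbf-KD comparison (SE, adjusted p = 3.46e-05 by edgeR) and -4.04 ± 0.45 in the WT comparison (SE, adjusted p = 3.86e-05 by edgeR). Wnt6 had a log2 fold change of -3.16 ± 0.37 in the Rbf-KD comparison (SE, adjusted p = 5.96e-05 by edgeR) and of -2.43 ± 0.37 in the WT comparison (SE, adjusted p = 0.000277 by edgeR). The fitted log2 fold change of Wnt4 was the smallest of the 5 in both comparisons, but in the WT comparison that place rested on muscle WT library 1. It averaged 2.62 ± 0.271 TMM CPM in muscle labelled Rbf-KD (SD, n = 2), against 8.79 ± 2.51 in notum labelled Rbf-KD (SD, n = 3), a log2 fold change of -1.75 with an SE of 0.69 (adjusted p = 0.0454 by edgeR). In the WT libraries it averaged 2.82 ± 3.33 TMM CPM in muscle (SD, n = 2), against 8.86 ± 2.29 in notum (SD, n = 3), a log2 fold change of -1.64 with an SE of 0.71 (adjusted p = 0.0609 by edgeR). Without muscle WT library 1, which left 1 muscle library in that group, that value was -4.27, while Wnt6 was then at -2.58. With the replicate number as a block the value of Wnt4 was -1.98 and passed the test (adjusted p = 0.0207 by edgeR). The Rbf-KD call for Wnt4 was lost without notum library 2 or 3. Its log2 fold changes without either of these, or without either muscle library, lay between -1.88 and -1.61.

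**Figure D2:**
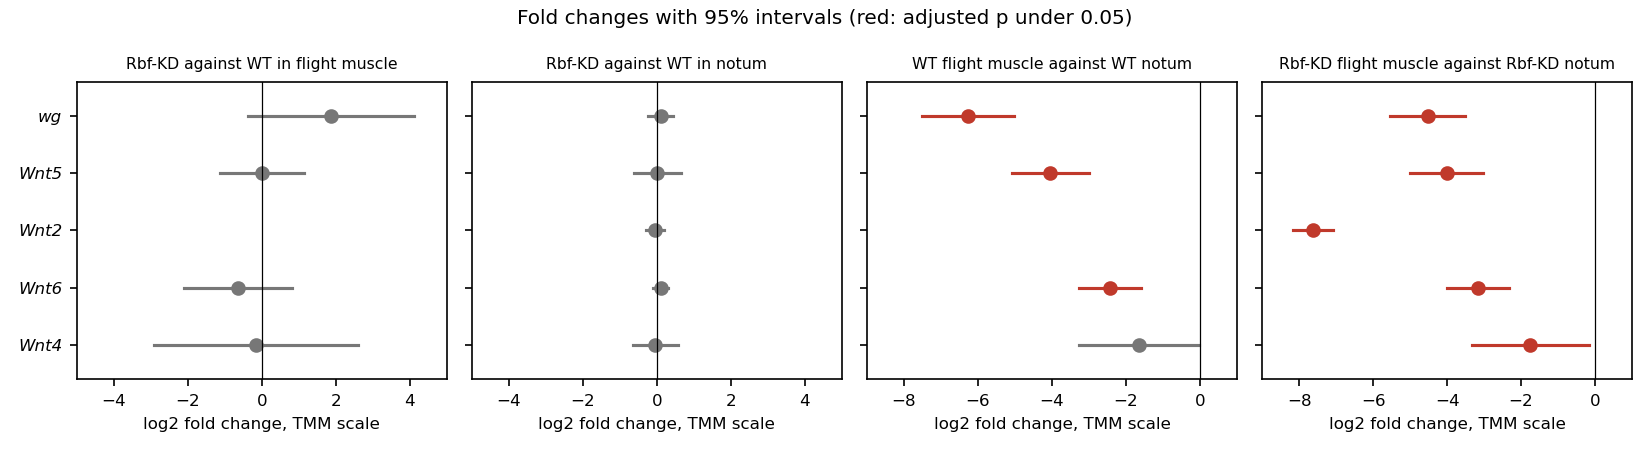
Log2 fold changes of the measured Wnt ligand genes on the TMM scale, with 95% intervals, for Rbf-KD against WT in flight muscle and in notum and for flight muscle against notum within WT and within Rbf-KD. Red marks an edgeR adjusted p under 0.05, which is not read for Wnt2 between tissues. Wnt2 is left out of the panels where muscle WT libraries with 0 counts enter. The genotype intervals all include 0, and the tissue values all lie below 0.

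Scaling moved these levels more than it moved the calls. The TMM factors were 0.595 and 0.551 in muscle labelled Rbf-KD, 0.277 in both muscle libraries labelled WT, and 1.76 to 1.95 in notum. With the library total alone as the scale, the median over all genes shifted by -1.67 on the log2 scale in the Rbf-KD tissue comparison and by -2.74 in the WT tissue comparison. On that scale the log2 fold change of wg was -6.18 in the Rbf-KD comparison and -9.01 in the WT comparison, and that of Wnt4 was -3.41 in the Rbf-KD comparison and -4.38 in the WT comparison. All 5 genes were then called lower in both tissue comparisons, with the call of Wnt2 again not read. The split of all called genes also moved, to 2153 higher and 9190 lower in the Rbf-KD comparison (4679 and 5255 on the TMM scale) and to 1464 higher and 10235 lower in the WT comparison (4468 and 5823 on the TMM scale).

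Between genotypes in flight muscle, none of the 4 ligand genes tested passed the test, where edgeR called 4348 of 10930 genes, or 39.8%, at an adjusted p under 0.05. None of the 4 passed at an unadjusted p under 0.05, against 5475 of all genes, and DESeq2 called 0. Without Rbf-KD library 1 or 2 the count over all genes was 2396 or 2657. Wnt2 was left out by the filter on low counts. For wg, the log2 fold change was 1.87 with an SE of 0.87 (95% interval -0.38 to 4.11, adjusted p = 0.15 by edgeR). Both libraries labelled Rbf-KD, at 3.9 and 1.9 TMM CPM, lay above both labelled WT, at 1.32 and 0.201, the last of these being 3 counts. How many of all genes were separated in this way was not counted. For Wnt4 the log2 fold change was -0.15 with an SE of 1.02 (adjusted p = 0.917 by edgeR), and for Wnt6 it was -0.64 with an SE of 0.58 (adjusted p = 0.422 by edgeR). For Wnt5 the 95% interval was -1.14 to 1.13 (adjusted p = 0.999 by edgeR).

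The muscle comparison between genotypes depended on scaling and on the libraries used. With the library total as the scale, the median over all genes shifted by 1.11 on the log2 scale to 1.20. Of all genes 7449 were then called higher and 555 lower, against 2125 and 2223 on the TMM scale. On the library-total scale the log2 fold change of wg was 2.97 (adjusted p = 0.0359 by edgeR). The values of Wnt4, Wnt5 and Wnt6 turned positive on that scale, at 0.94, 1.09 and 0.49, and none of these 3 passed the test. In the fit of all 10 libraries wg passed as well, at 1.89 (adjusted p = 0.0352 by edgeR). With 21 and 3 counts in muscle labelled WT, wg passed the filter only through other groups, so neither call of wg is read as a gain. Wnt2 entered the fit of all 10 libraries only through its notum counts. Its muscle values lie below the limit of a count of 0, so its test there is not read. Without muscle WT library 1, which left 1 library in that group, the log2 fold change of Wnt4 was 2.37.

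Levels of other cell types' markers in muscle depended on the scale for some lists. The 8 fat body markers summed to between 4210 and 4800 library-total CPM in muscle labelled Rbf-KD and to between 171 and 207 in muscle labelled WT, and on the TMM scale to between 7640 and 8070 CPM in muscle labelled Rbf-KD and between 618 and 746 in muscle labelled WT. The 8 hemocyte markers summed to 1620 library-total CPM in both libraries labelled Rbf-KD and to between 409 and 457 in those labelled WT, and on the TMM scale to between 2730 and 2940 CPM in those labelled Rbf-KD and between 1480 and 1650 in those labelled WT. The 9 notum epithelium markers summed to between 57.4 and 91.9 library-total CPM in muscle labelled Rbf-KD and to between 22.5 and 29.0 in muscle labelled WT, with none of the 9 at 0 in either group. On the TMM scale their sums overlapped, at 104 to 154 CPM in muscle labelled Rbf-KD and 81.5 to 105 in muscle labelled WT. The 8 neuronal markers summed to between 120 and 184 library-total CPM in muscle labelled Rbf-KD and to between 48.6 and 60.1 in muscle labelled WT, and on the TMM scale they overlapped too, at 201 to 333 CPM in muscle labelled Rbf-KD and 176 to 217 in muscle labelled WT. The summed library-total CPM of the 5 ligand genes was 6.65 and 5.0 in muscle labelled Rbf-KD and 3.44 and 1.41 in muscle labelled WT. On the TMM scale it was 11.2 and 9.08 CPM in muscle labelled Rbf-KD and 12.4 and 5.08 in muscle labelled WT, where the groups overlapped and WT library 1 was highest. The part of these cell types in the ligand values was not tested.

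The difference between the genotype effects in muscle and in notum was tested directly, and no ligand gene passed, where edgeR called 4069 of 13407 genes, or 30.3%. At an unadjusted p under 0.05 wg passed, as did 5323 of the 13407 genes, and DESeq2 called wg. Wnt2 was in this fit only through its notum counts, and its test is not read for the reason given above. Because wg and Wnt4 had 3 and 7 counts in muscle WT library 2, they entered this fit through other groups. Calls of wg under single settings are therefore not read as gained. The called genes were 2310 higher and 1759 lower, against 6990 and 365 on the library-total scale, where wg passed. For wg it was 1.75 ± 0.68 on the log2 scale (SE, 95% interval 0.19 to 3.31, adjusted p = 0.0897 by edgeR). With the replicate number as a block wg passed, at 1.85 (adjusted p = 0.0054 by edgeR). For Wnt4, Wnt5 and Wnt6 the values were -0.11, 0.02 and -0.73 on the log2 scale, with edgeR adjusted p of 0.971, 1.00 and 0.309. Without muscle WT library 1 the values were 3.70 for wg and 2.50 for Wnt4. Without muscle Rbf-KD library 1 Wnt6 was at -1.64, and without muscle Rbf-KD library 2 wg was at 2.20. Each of these fits left 1 muscle library in that group, so only the values are given.

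The low muscle levels were set beside genes that mark the notum epithelium, each as a percent of its own mean in notum of the same genotype on the TMM scale. In muscle labelled Rbf-KD, wg was at 5.91% and 2.89%, Wnt2 at 0.56% and 0.444%, Wnt5 at 4.17% and 8.09%, Wnt6 at 16.7% and 5.92%, and Wnt4 at 31.9% and 27.6%. In muscle labelled WT, wg was at 2.21% and 0.335%, Wnt2 at 0 in both libraries, Wnt5 at 7.31% and 4.83%, Wnt6 at 20% and 17.1%, and Wnt4 at 58.3% and 5.28%. The medians over the 5 ligand genes were 5.91% and 5.92% in muscle labelled Rbf-KD and 7.31% and 4.83% in muscle labelled WT. The medians over the 9 epithelium markers were 15.5% and 6.56% in muscle labelled Rbf-KD and 6.42% and 4.96% in muscle labelled WT. The markers ranged from 2.88% to 75.1% in muscle labelled Rbf-KD and from 0.908% to 94.9% in muscle labelled WT. The top of both ranges was sr, which also served as a tendon cell marker. Next was ush, at 54.3% and 57.1% in muscle labelled Rbf-KD and 49.7% and 47.8% in muscle labelled WT. The other markers reached at most 22.3% (tup, Rbf-KD library 1). Wnt2 thus lay below all 9 markers in the 4 muscle libraries.

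**Figure D3:**
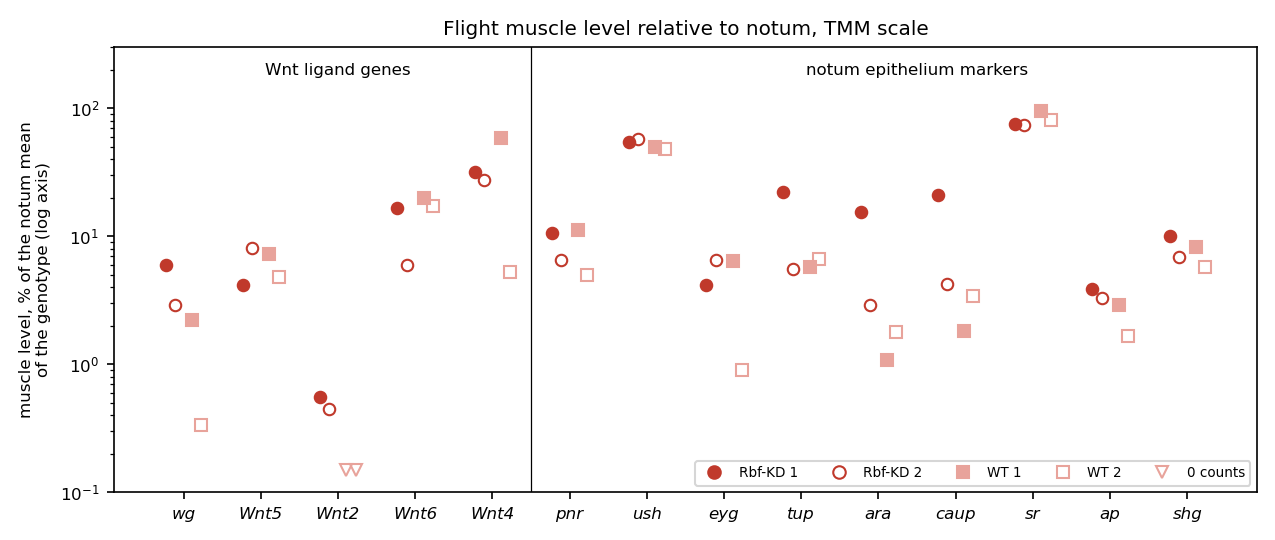
Level of 5 Wnt ligand genes and 9 notum epithelium markers in each of the 4 muscle libraries, as a percent of the mean in notum of the same genotype (TMM scale, log axis), with circles for Rbf-KD and squares for WT. Wnt2 is lowest, at 0.56% and 0.444% in Rbf-KD muscle and at 0 counts in WT muscle (triangles), and Wnt4 and wg are further apart between the WT libraries than Wnt5 and Wnt6.

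The spread within each muscle pair was uneven among the ligand genes. Between the Rbf-KD libraries, the level in library 1 over library 2 was 2.09 for wg, 2.88 for Wnt6, 1.18 for Wnt4 and 0.528 for Wnt5 on the TMM scale. Between the WT libraries the same ratio was 10.6 for Wnt4, above 99.7% of genes tested in muscle, and 6.35 for wg, above 99.1%. It was 1.46 for Wnt5 and 1.13 for Wnt6. Among the 9 epithelium markers it ranged from 0.645 for eyg to 5.51 for ara in the Rbf-KD pair and from 0.512 for caup to 6.8 for eyg in the WT pair, so that single markers went opposite ways in the 2 pairs. It was near 1 in both pairs for ush, at 0.973 in the Rbf-KD pair and 1.0 in the WT pair, and for sr, at 1.04 in the Rbf-KD pair and 1.13 in the WT pair.

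Other genes of the pathway were read from 6 lists, by role. In notum 0 of 59 tested genes were called between genotypes by edgeR, 0 by DESeq2 and 0 at an unadjusted p under 0.05, at a median log2 fold change of 0.01. In flight muscle 17 of 58 were called between genotypes, or 29.3%, beside 39.8% of all genes. On the TMM scale 1 was higher and 16 were lower, beside 19.4% of all genes called higher and 20.3% called lower. On the library-total scale that split turned round, with 36 of 58 called higher and 2 called lower. Directions of these genes in muscle are therefore given for the TMM scale, relative to a median of 0.10 over all genes.

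Among 5 genes of Wnt lipidation and secretion in muscle, 1 was higher and 3 were lower in libraries labelled Rbf-KD, at a list median of -0.59. The higher one was wls, which encodes Wntless, the carrier of Wnt proteins to the cell surface, at a log2 fold change of 1.00 with an SE of 0.30 (adjusted p = 0.0487 by edgeR). It stayed higher on the library-total scale, at 2.12. The lower ones act in the retromer pathway that recycles Wntless, with log2 fold changes of -1.03 for Snx3, -0.80 for Vps26 and -0.59 for Vps35, each positive on the library-total scale. Exons of wls, Vps26 and Vps35 overlap other genes in the annotation, so their counts are uncertain.

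Among 11 receptors and coreceptors in muscle 1 was called, at a list median of 0.11. The gene was drl, which encodes Derailed, at a log2 fold change of -1.81 with an SE of 0.20 (adjusted p = 0.00224 by edgeR), and it stayed lower on the library-total scale, at -0.71. It had 146 and 219 counts in muscle labelled Rbf-KD, against 286 and 233 in muscle labelled WT. Its ligand gene Wnt5 did not pass in the same comparison. Among 6 extracellular regulators 2 were lower, at a list median of -0.38: the glypican genes dally, at -1.11, and dlp, at -0.50, which were at 0.00 and 0.61 on the library-total scale.

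Among 17 genes of signal transduction in muscle 7 were lower, at a list median of -0.36. They included gish, a casein kinase gene, at a log2 fold change of -2.54 with an SE of 0.15 (adjusted p = 0.000701 by edgeR), which stayed lower on the library-total scale at -1.43. The kinase genes sgg and CkIalpha of the complex that marks Armadillo for destruction were at -1.22 and -1.07, and slmb, whose product directs that destruction, was at -0.92. On the library-total scale these 3 were at -0.11, 0.04 and 0.18. The count of sgg is uncertain, since a non-coding gene overlaps its exons. Among 7 planar polarity genes 2 were lower, pk at -1.48 and fj at -1.41, at a list median of -0.45, and on the library-total scale they were at -0.37 and -0.30.

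Among 12 tested regulators of wg in the notum and genes that respond to Wg, 1 was lower in muscle labelled Rbf-KD, at a list median of 0.38. It was vg, which encodes a transcription cofactor that responds to Wg in wing disc and muscle precursors, at -0.74 with an SE of 0.11 (adjusted p = 0.00586 by edgeR), and on the library-total scale it was at 0.37.

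**Figure D4:**
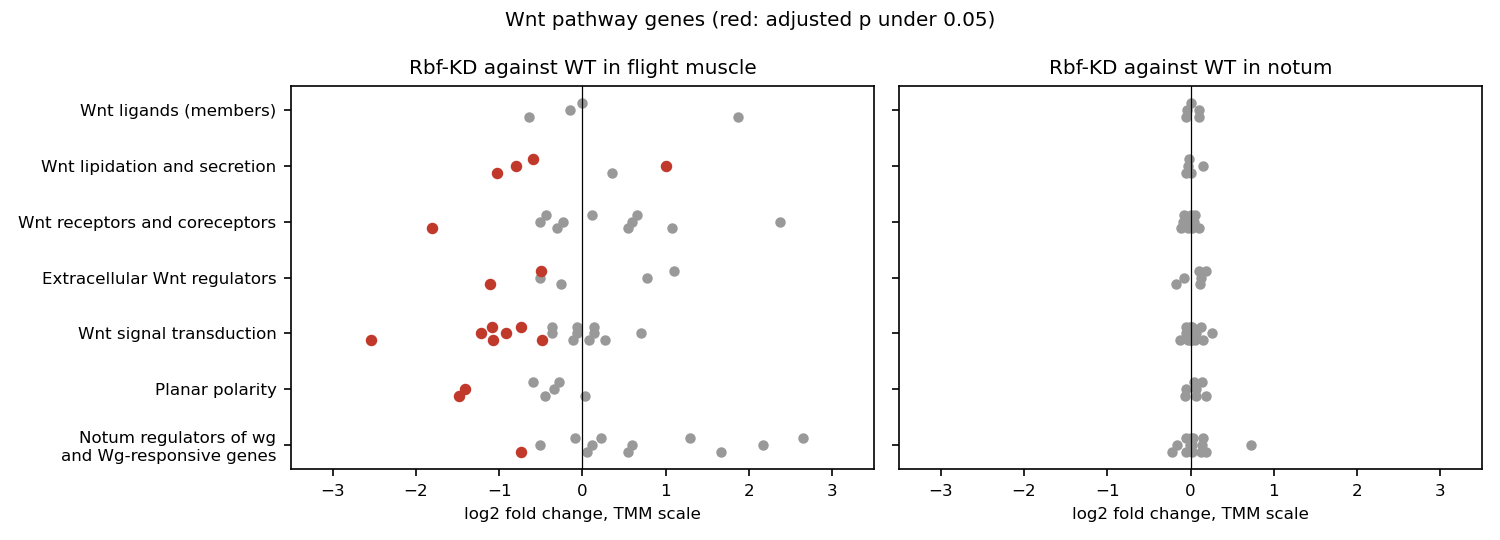
Log2 fold changes (TMM scale) of Rbf-KD against WT in flight muscle (left) and in notum (right) for Wnt ligand genes and 6 lists of pathway genes, each point being a gene and red marking an edgeR adjusted p under 0.05. In muscle 17 of 58 pathway genes outside the ligands are red, 16 of them below 0, a split that turns round on the library-total scale, and in notum none of 59 is.

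Between tissues, receptor and planar polarity genes were lower in flight muscle along with the ligand genes. Of 11 receptors and coreceptors, 10 were lower and 1 was higher in muscle in each genotype. Their median log2 fold change was -3.05 in both. The higher one, Drl-2, did not pass the filter within notum, so its calls are not read. The Wg receptor gene fz2 was at -3.89 ± 0.18 in the Rbf-KD comparison (SE, adjusted p = 1.25e-07 by edgeR) and at -4.60 ± 0.19 in the WT comparison (SE, adjusted p = 3.9e-08 by edgeR). Of 7 planar polarity genes, 7 were lower in the Rbf-KD comparison and 6 in the WT comparison, with medians of -4.79 in the Rbf-KD comparison and -3.48 in the WT comparison. The largest group, signal transduction, was mixed, with 4 higher and 8 lower of 17 in the Rbf-KD comparison and 6 higher and 7 lower in the WT comparison, against 1 higher and 16 lower in each on the library-total scale. There arm, which encodes Armadillo, was at -1.88 in the Rbf-KD comparison and -1.82 in the WT comparison, and sgg was at 3.13 in the Rbf-KD comparison and 4.31 in the WT comparison. On the library-total scale both kept their sign. Exons of arm and sgg overlap other genes, so their counts are uncertain. Of all genes tested, 74.1% were called in the Rbf-KD comparison and 76.8% in the WT comparison.

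Of 5 lipidation and secretion genes, 1 was higher and 2 were lower in muscle in the Rbf-KD comparison (median -0.15), and 3 were higher and 2 were lower in the WT comparison (median 0.48), but all 5 were lower in both on the library-total scale. On the TMM scale Vps26 was at 0.27 in the Rbf-KD comparison and 1.01 in the WT comparison, and Vps35 was at 0.48 in the WT comparison. The gene por, which encodes Porcupine, was at -1.15 in the Rbf-KD comparison and -1.59 in the WT comparison, and wls was at -2.44 in the Rbf-KD comparison and -3.49 in the WT comparison. Exons of por and wls overlap other genes. Of 6 extracellular regulators, 2 were higher and 3 were lower in the Rbf-KD comparison (median -1.25) and 3 were higher and 3 were lower in the WT comparison (median -0.58), against 1 higher and 4 lower in the Rbf-KD comparison and 0 higher and 4 lower in the WT comparison on the library-total scale. Notum, which encodes an enzyme that removes the lipid from Wnt proteins, was at -4.54 in the Rbf-KD comparison and -4.21 in the WT comparison, and annotated features overlap its exons too. Among the higher ones, Cow, which encodes a secreted proteoglycan that binds Wg, was at 3.78 in the Rbf-KD comparison and 2.82 in the WT comparison, and Swim, which encodes a Wg-binding protein, passed as higher in the Rbf-KD comparison and was at 2.50 in the WT comparison. Swim shares exon sequence with Vps35, so both counts are uncertain, and on the library-total scale it was at 0.49 in the Rbf-KD comparison and -0.25 in the WT comparison. Cow on that scale was at 2.07 in the Rbf-KD comparison and 0.07 in the WT comparison. Of 14 notum regulators and Wg-responsive genes, 10 were lower in the Rbf-KD comparison. In the WT comparison 11 were lower and 1 was higher. On the library-total scale 13 and 14 were lower in these comparisons and none was higher. These counts include ac and sc, which had 0 or 1 counts in each muscle library. Both entered the tests only through notum, so their calls are not read.

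Genes whose levels ran most like those of a ligand gene were taken by Pearson's r of log2(TMM CPM + 0.5) over the 10 libraries, among 5504 named protein-coding genes with a mean of at least 5 CPM. These r values mostly follow the step between tissues, which all 10 libraries share, and are descriptions. For wg the nearest were Mekk1 and kug, both at 0.998, and vlc at 0.997. For Wnt2 they were E(spl)m2-BFM, spz6 and bam, all at 0.999. For Wnt5 they were side-V at 0.998 and stan and ImpE1 at 0.997. For Wnt6 they were aru at 0.994 and Gdi and MED20 at 0.993. For Wnt4 they were lower, with sing and Axs at 0.968 and sstn at 0.961. At least 0.95 was reached by 1137 genes for wg, by 1101 for Wnt2, by 821 for Wnt5 and by 558 for Wnt6, against 7 for Wnt4.

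Among the ligand genes themselves, r over the 10 libraries was between 0.797 for Wnt4 with Wnt6 and 0.985 for Wnt2 with Wnt5. Within the 6 notum libraries alone it was highest for wg with Wnt4, at 0.92, and lowest for Wnt2 with Wnt6, at 0.59, and wg with Wnt6 was at 0.82. The 2 notum libraries numbered 1 were low on the TMM scale for every one of these genes, so these r values share that difference. On library totals Wnt6 in notum WT library 1 was at 24.0 CPM, above library 2 at 23.7.

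The related gene wntD, whose product lacks the lipid of other Wnt proteins, was read alongside the members. It had 0 counts in all 4 muscle libraries. It had 15, 1 and 0 counts in notum labelled Rbf-KD, against 3, 1 and 0 in notum labelled WT, and it was not tested because it did not pass the filter on low counts.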

How the data were processed

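Total RNA was sequenced after Ribo-Zero depletion with a stranded TruSeq kit, per the labels' protocols. The authors deposited raw counts per transcript in 1 table, with no normalization. The submitters' processing notes name build BDGP5, the aligners TopHat2 2.1.1 and Bowtie2 2.3.2, featureCounts of Subread, DESeq2 1.14.1, FastQC and bcl2fastq 2.17.1.14. Strand setting, annotation and handling of shared reads are not given in the sources used here. Of 29173 transcripts, 27011 (92.6%) matched 15259 genes by identifier in the BDGP6 annotation. The others held 9.86% to 20.34% of a library's counts and stayed out of the tests. Only chromosome arms are given, since the builds differ.

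From the deposited counts, each gene was represented by its most counted transcript. edgeR 4.0.16 (R 4.3.3, robust quasi-likelihood test, TMM, filterByExpr with a minimum count of 10 and a minimum total of 15) was run over all genes with Benjamini-Hochberg adjustment at 0.05. Genotypes were compared within a tissue, and tissues and the difference of genotype effects in a fit of all 10 libraries. Fold changes between genotypes come from the fit within the tissue, and all levels from the TMM scale of the 10 libraries. Scripts were tested on simulated data. Alternatives were library-total scaling, DESeq2 1.42.0, limma-voom (limma 3.58.1), no filter, counts summed over transcripts, a replicate block, other sets of samples and leaving out each library.

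The members, gene lists and tests were chosen with earlier results of these data known. All member genes, wntD and Rbf are named whatever their values. Of a pathway list, at most 4 called genes of smallest adjusted p are named per comparison, and 3 named genes are given per member for likeness. Deviations of notum libraries with the same replicate number correlated at 0.693, 0.605 and 0.206 for numbers 1, 2 and 3. Rbf-KD library 3 correlated more with WT library 2, at 0.505, so the numbers paired the notum samples only in part. In flight muscle libraries of the same number correlated at -0.217. The main tests used no block.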

Additional observations from a re-analysis of the deposited data

How the results depend on the processing

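In notum no ligand gene was called under any setting run, although 19 called genes overall became 130 with DESeq2, 79 with the replicate block, 40 without both libraries numbered 1 (an alternative chosen after seeing the data) and 1 to 18 with a library left out. Fold changes near 0 turned sign there. Wnt2 was at 0.045 without Rbf-KD library 1 and 0.02 without WT library 3. Wnt4 was at 0.20, 0.10 and 0.05 without Rbf-KD library 1 or WT library 2 or 3, and at 0.0005 without both libraries numbered 1. Wnt5 was at -0.10 and -0.20 without Rbf-KD library 3 or WT library 1, with a range of -0.20 to 0.32 over libraries left out, and at -0.075 without both numbered 1.

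In flight muscle the 0 ligand genes called between genotypes became 1 (wg) with library-total scaling and 2 (wg, Wnt2) in the fit of all 10 libraries. The call of Wnt2, here and in the difference of genotype effects, is not read as gained. It was tested only through its notum counts and had 0 counts in both WT muscle libraries. The calls of wg in these comparisons are not read as gained either, since wg had 3 counts in muscle WT library 2. All genes called were 8004 with library-total scaling, against 4348, and 2396 to 2991 with a library left out. Signs turned for Wnt4 at 0.94 (library total), 0.48 (replicate block), 0.57 (limma-voom), 0.40 (crossed block) and 2.37 (without WT library 1), with -1.03 to 2.37 over libraries left out. They turned for Wnt5 at 1.09 (library total), 0.025 (no filter), 0.067 (fit of all 10 libraries), 0.41 (without Rbf-KD library 1) and 0.29 (without WT library 1), with -0.52 to 0.41 over libraries left out, and for Wnt6 at 0.49 (library total). With 2 libraries a group, the muscle correlations of -0.217 as numbered and 0.217 as crossed are the same value with its sign turned. Whether the numbers were crossed was not tested. A block with the crossed pairing, added after seeing the data, called 4177 genes, and the block as numbered called 3622.

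Between the genotype effects, the 0 ligand genes called became 2 (wg, Wnt2) with library-total scaling, 1 (wg) with DESeq2, 2 (wg, Wnt2) with the replicate block, and 0 to 2 with a library left out, and all genes called were 7355 with library-total scaling, against 4069. Signs turned for Wnt4 at 0.97 (library total), 0.35 (block), 0.65 (limma-voom), and -0.98 to 2.50 with a library left out (0.04 without notum Rbf-KD library 2 and without notum WT library 1, 2.50 without muscle WT library 1). They turned for Wnt5 at -0.16 (DESeq2), -0.079 (block), -0.052 (limma-voom), and -0.15, -0.28, -0.04, -0.54 and -0.24 without notum Rbf-KD library 1, notum WT libraries 2 and 3, muscle Rbf-KD library 2 and muscle WT library 2 (-0.54 to 0.42 over libraries left out), and for Wnt6 at 0.35 (library total). Between tissues, wg, Wnt5 and Wnt6 were called lower in both genotypes under every setting run, and so was Wnt2, whose test is not read. Fits without a muscle library left 1 library in that group, and their calls are not read. Wnt4 was called in WT with library-total scaling, DESeq2, the block, and without both notum libraries numbered 1. In Rbf-KD it was not called with counts summed over transcripts (edgeR adjusted p = 0.053) or without notum library 2 or 3. The block changed no other ligand call. The cause of these shifts was not tested. With 2 libraries a group and 3 to 154 counts of each ligand gene but Wnt2 in muscle, differences of the ligand genes between muscle genotypes were within wide intervals.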
